A study of Mus musculus with 2 samples.

Results

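The proteasome genes of primary hepatocytes were compared between control and *Drp1*LiKO mice on 2 microarrays, 1 per genotype. The genes were taken by name, as every array name that starts with Psma to Psmg and a digit, without the interferon-inducible *Psmb8*, *Psmb9*, *Psmb10*, *Psme1* and *Psme2*. The rule uses names alone, although it was written with earlier results of these data known. This gave 45 of the 37074 gene names of the array, read by 89 of its 56605 probes, and 82 of these probes were compared. At least 1 probe of 44 genes was well above background, and at the brightest probe of each it was so on both arrays. The remaining gene was *Psmb11*, whose product is the catalytic subunit of cortical epithelial cells of the thymus. Its probe gave signals of 3.97 and 3.25, not well above background on either array. Of the 45 genes, 31 encode subunits of the constitutive particle. The others include assembly chaperones, activators, an inhibitor and tissue-restricted subunits. The name pattern also took 2 genes given none of these roles, *Psmc3ip* and *Psme2b*, which are described apart.

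Both groups were primary hepatocytes of mice on a C57BL/6 background, isolated with collagenase, given fresh medium 4 h after seeding and harvested at 24 h without further treatment. Control mice carried the floxed *Drp1* alleles without Cre (*Drp1* flox/flox; the labels call them wild type). *Drp1*LiKO mice carried the same alleles and 1 copy of Alb-Cre, in which the albumin promoter drives Cre in hepatocytes, so other liver cells in a culture keep *Drp1*. The ages of the donors and the number of mice behind each array are not given in the sources used here. No array was repeated, so no test was possible and no p-value can be given. Every difference is one between 2 arrays, and their number limits the precision.

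The proteasome degrades proteins tagged with ubiquitin. Its 20S core is a barrel of stacked rings, with outer alpha rings that gate the entry and inner beta rings that hold the catalytic sites. The 19S regulatory particle, made of a base with a ring of ATPases and a lid that removes ubiquitin, recognizes and unfolds substrates. In immune cells and under interferon, immune catalytic subunits take the place of the constitutive ones. When proteasome activity drops, the transcription factor NRF1 (*Nfe2l1*) is known to raise the subunit genes together.

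Signals are the processed intensities of the scanner software, in arbitrary units. They were divided by the 75th percentile of their array, 313.4 for control and 355.6 for *Drp1*LiKO, before a ratio was taken. A gene with equal scaled level therefore has a raw *Drp1*LiKO signal 1.135 times its control signal. All ratios are log2 of *Drp1*LiKO over control after this scaling, a gene is its brightest probe, and levels of different probes are not compared. Between single spots of 1 probe, the SD of such a ratio was 0.054 at signals above 4096 and 0.493 at signals below 64, from probes printed 10 times. From 256 to 1024 it was 0.113 and from 1024 to 4096 it was 0.105, each resting on only 5 such probes. This spot noise holds no difference between cultures or mice. The study's threshold was a Z score of 2, which lay at 1.30 upward and at −1.31 downward, that is 2.46-fold and 2.49-fold. Among the 20165 genes compared, 3.48% passed it upward and 2.81% downward.

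The labels were checked with *Dnm1l*, which encodes DRP1. Its signal was 2602 in control but 1217 in *Drp1*LiKO, a ratio of −1.28, and its dim other probe gave −0.31. All 10 hepatocyte markers were well above background in *Drp1*LiKO and 9 in control, without *Pck1*, and their median ratio was 0.10. The markers of some other liver cells were higher in *Drp1*LiKO. Of 14 Kupffer cell and macrophage markers, 13 were well above background in *Drp1*LiKO and 11 in control. All 13 that were compared were higher, with a median of 2.32 in which 2 ratios are bounds. The summed raw signal of the list went from 11440 to 30110. Such sums are not scaled and are led by the brightest probes, here *Cd14* with 6407 of the 11440 in control. *Timd4* was not above background on either array, and *Clec4f* and *Vsig4* were not in control. All 9 endothelial markers were higher, with a median of 1.66 in which 2 ratios are bounds, and their summed signal went from 4262 to 8960. Of 6 stellate cell markers compared 5 were higher, with a median of 1.04 in which 2 ratios are bounds. The lone neutrophil marker compared, *Ly6g*, was at 1.90 and past the Z score, and the lone B cell marker compared, *Ms4a1*, was at −0.29. Both of these ratios are bounds. The cholangiocyte markers were mixed, with *Krt19* at −0.40 and a summed signal of 4667 in control against 4549, and the lone T and NK cell marker compared, *Cd3e*, was at −0.37. These arrays measured whole cultures, in which fewer cells of a type and less RNA per cell cannot be told apart, and the part of these cells in the proteasome values was not tested.

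The sequences below show some of what the array read for the beta ring, the part of the barrel whose 7 genes all had a ratio below 0. Each is a 60-base probe as the deposited files give it, 5′ to 3′, and its coordinates, in mm9, span more than its length, so it crosses a splice junction of a mature transcript. Capitals mark the 36 bases that both *Psmb2* probes share.
Psmb2 (NM_011970), chr4:126361456-126364299, plus strand: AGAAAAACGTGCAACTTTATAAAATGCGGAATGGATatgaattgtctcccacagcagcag
Psmb2 (NM_011970), chr4:126361432-126364275, plus strand: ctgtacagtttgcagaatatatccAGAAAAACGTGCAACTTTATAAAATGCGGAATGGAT
Psmb1 (NM_011185), chr17:15630098-15631393, minus strand: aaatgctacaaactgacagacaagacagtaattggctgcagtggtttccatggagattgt
Psmb4 (NM_008945), chr3:94690546-94690726, minus strand: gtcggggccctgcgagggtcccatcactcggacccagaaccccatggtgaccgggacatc
Psmb7 (NM_011187), chr2:38468966-38489385, minus strand: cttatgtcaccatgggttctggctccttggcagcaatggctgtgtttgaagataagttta

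As a whole, the proteasome genes differed little between the cultures. Their median ratio was −0.01, with 20 genes above 0 and 24 below, against a median of −0.05 over all genes compared. Of the 44 genes, none passed the Z score in either direction, and no single probe did. A smaller limit was set at a ratio of 0.32 in either direction, where the higher signal exceeds the lower by 25%. *Psmf1* reached 0.32 upward and *Psmc3ip* passed −0.32 downward, and no other member did either. *Psmf1* did not reach it with the authors' deposited intensities, where *Psmd11* did, nor with the median of a gene's probes, where *Psme4* did. Over all genes compared, 18.7% reached it upward and 20.6% downward. Below 0 were 24 of 44 members and 55.4% of all genes. This count depended on the scaling. It was 16 of 44 against 50.3% of all genes with spike-in scaling, 18 against 55.4% with quantile normalization and 18 against 59.4% with normexp background correction, and in these settings the member median was above 0. Of the 82 member probes 41 were below 0, 5 were at or above 0.32 and 3 at or below −0.32. These shares were not taken over all probes compared, so the probe counts are a description only. The median of the member probes was −0.00, against −0.03 over all probes compared.

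The 31 members of the 20S core and the 19S particle, a set limited to names that fit the rule, stayed in a narrower band still. All 31 lay inside this limit, from −0.26 for *Psmb3* to 0.26 for *Psma5*, with a median of −0.03 and an SD of 0.13. Inside the limit were 60.7% of all genes compared, whose SD was 0.69. Bright probes have less noise, and 36 of the 44 members were among the brightest 25% of genes. Of these 5042 bright genes, 77.4% were inside the limit, 10.8% reached it upward, 11.7% reached it downward and 59.3% were below 0, and their SD was 0.37. The SD of the subunits was smaller than that of these bright genes, as a description with no test. The bright genes were not matched to the subunits by signal, and they include genes past the Z score, which widen their SD. Whether the subunits varied less than other genes of equal signal was not tested.

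**Figure D1:**
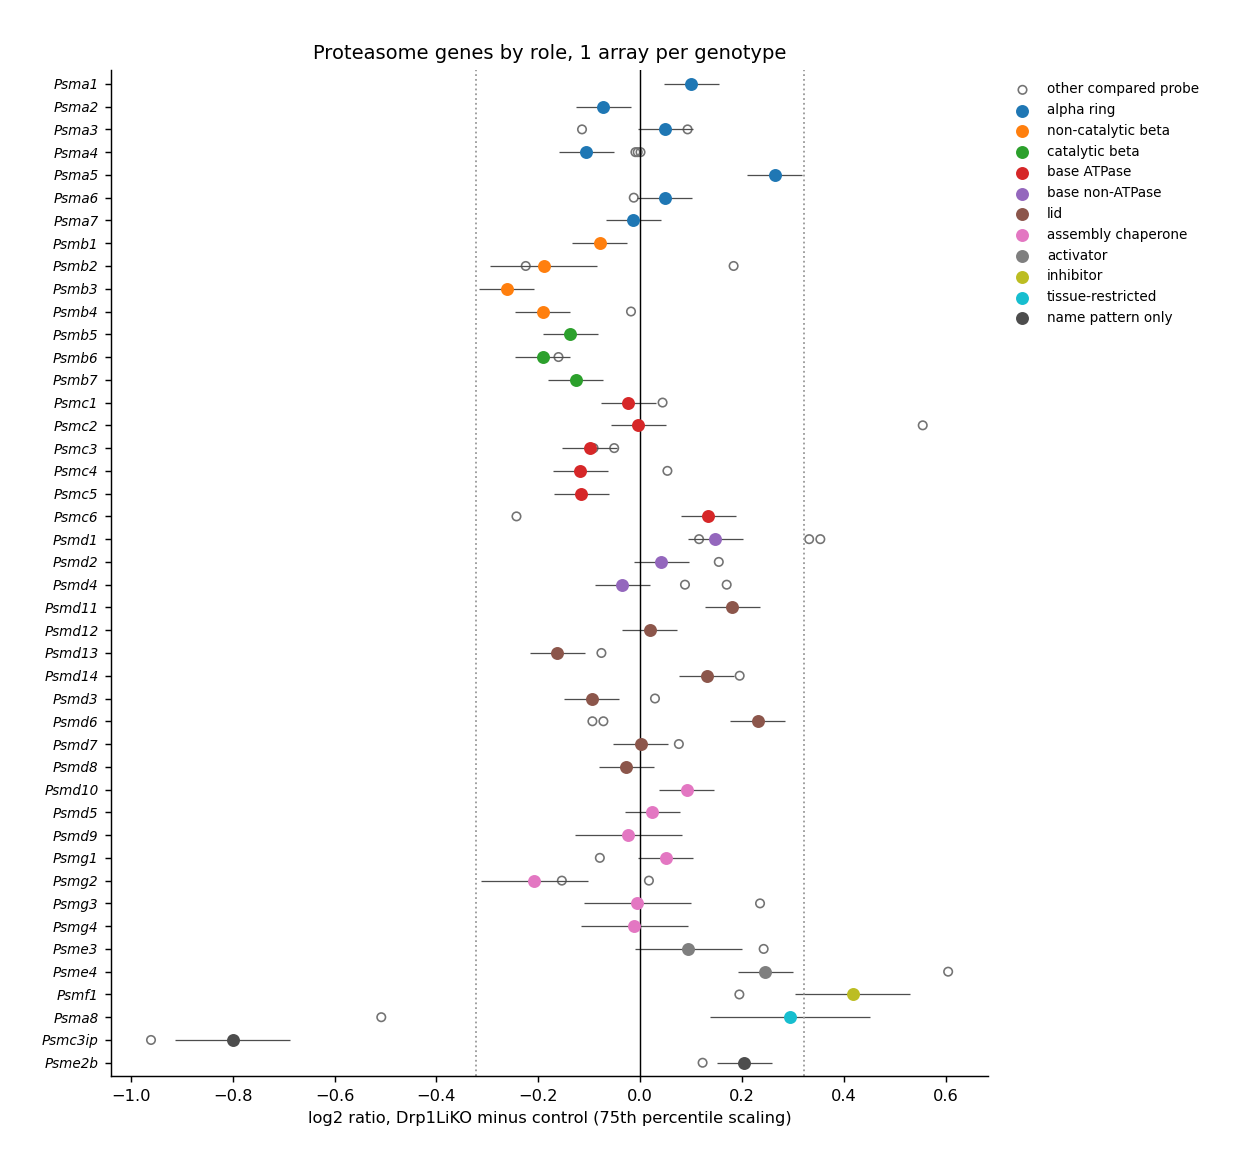
Log2 ratio of *Drp1*LiKO over control for the 44 proteasome genes compared, grouped by role, 1 array per genotype. Filled points are the brightest probe of each gene, bars are ± 1 SD of the noise between spots, open circles are other compared probes and dotted lines mark ratios of −0.32 and 0.32. The filled points of all core and 19S genes lie between the dotted lines, and those of *Psmb1* to *Psmb7* lie left of 0.

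The alpha ring did not move one way. Of *Psma1* to *Psma7*, 4 genes were above 0 and 3 below, with a median of 0.05. *Psma5* had signals of 17370 (control) and 23690 (*Drp1*LiKO), a ratio of 0.26, and was the third highest of all members. It has a single probe, and its ratio was 4.86 times the spot noise. The lowest of the ring was *Psma4*, with signals of 37170 and 39210, a ratio of −0.11, and its other 3 probes lay near 0. The raw signal of *Psma4* was thus higher in *Drp1*LiKO and its scaled level lower. The testis-enriched alpha subunit *Psma8* was dim, with signals of 130.4 and 181.4 and a ratio of 0.29. Its other probe went the other way, from 30.8 to 24.6, a ratio of −0.51, at a signal where the noise SD was 0.493.

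In the beta ring all 7 genes were below 0, with a median of −0.19. The structural subunits *Psmb1* to *Psmb4* ran from −0.08 to −0.26. *Psmb3* had signals of 43020 (control) and 40720 (*Drp1*LiKO), a ratio of −0.26 at its single probe, and was the second lowest of all members. *Psmb4* had signals of 47290 and 47010, a ratio of −0.19 at its brightest probe. That probe spans 290 bases and so crosses a junction too, but is not printed above. The dimmer *Psmb4* probe that is printed gave −0.02. For *Psmb2* both overlapping probes were lower, at −0.19 with signals of 1902 and 1893 and at −0.22 with signals of 1662 and 1615. A probe to the genome between their outer ends, listed under a cDNA accession, gave 0.18. *Psmb1* was nearest to 0, with signals of 13470 and 14470 and a ratio of −0.08.

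The catalytic subunits were lower by similar amounts. *Psmb5*, the chymotrypsin-like subunit, had signals of 24180 and 24950 and a ratio of −0.14. *Psmb6*, the caspase-like subunit, had signals of 65970 and 65570, with ratios of −0.19 and −0.16 at its probes. *Psmb7*, the trypsin-like subunit, had signals of 11520 and 11980 and a ratio of −0.13. Of the 7 beta genes 3 (*Psmb1*, *Psmb5* and *Psmb7*) had a higher raw signal in *Drp1*LiKO and fell below 0 with the scaling, while the rest had a lower raw signal too. The count of 7 of 7 stands beside the 59.3% below 0 among bright genes, and no beta gene reached the limit of −0.32 with the 75th percentile scaling. With the deposited intensities *Psmb2* passed it, at −0.49. All 7 were also below 0 under the 7 other ways of computing the ratios that moved any of them by more than 0.001, while in the alpha ring 2 to 4 genes were below 0. The remaining 4 ways act on dim or outlier spots and leave these bright genes as they are. Of the 7 ways, spike-in scaling, median scaling and the 75th percentile of probes well above background on both arrays only shift every gene by 1 constant. The shifts were small, with *Psmb1* at −0.04 after spike-in scaling, so these settings are no separate support.

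**Figure D2:**
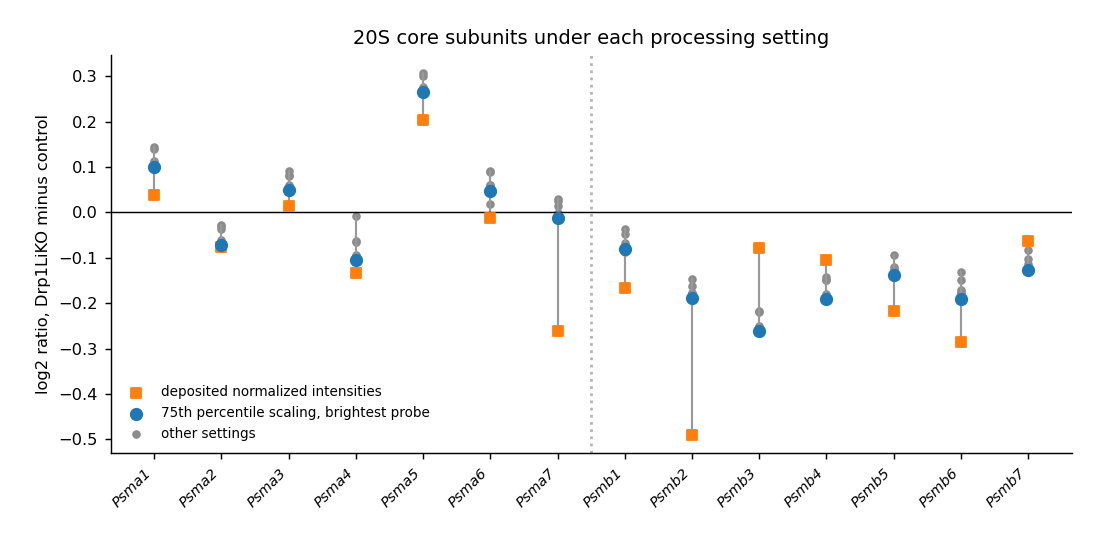
Log2 ratio of *Drp1*LiKO over control for the 14 core subunits, alpha left and beta right of the dotted line, under each processing setting, 1 array per genotype. Blue points are the values in the text, squares the authors' deposited normalized intensities and gray points the other settings. Every point of the 7 beta subunits is below 0, and those of the alpha subunits lie on both sides.

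In the 19S particle the members lay evenly around 0, with 8 above and 9 below and a median of −0.00. Of the base ATPases *Psmc1* to *Psmc6*, 5 were below 0. *Psmc4* was the lowest, with signals of 9772 and 10220 and a ratio of −0.12, and its other probe gave 0.05. *Psmc6* was the exception, with signals of 23940 and 29820 and a ratio of 0.13, and its dimmer probe gave −0.24. *Psmc2* had signals of 17830 and 20180 and a ratio of −0.00. A dim second *Psmc2* probe, listed under an Ensembl transcript, went from 46.9 to 78.2, a ratio of 0.55 where the noise SD was 0.493.

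All 4 probes of *Psmd1*, a scaffold of the base, were above 0. Its brightest probe had signals of 24370 and 30640, a ratio of 0.15, and its other probes gave 0.33, 0.12 and 0.35. The first of these other probes crosses a splice junction and had signals of 17780 and 25400:
Psmd1 (NM_027357), chr1:88027281-88029323, plus strand: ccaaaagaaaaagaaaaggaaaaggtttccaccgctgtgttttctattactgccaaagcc
The ubiquitin receptor *Psmd4* stood at −0.03, with signals of 29530 and 32710. In the lid, 5 of 8 genes were above 0 and the median was 0.01. *Psmd6* was the highest, with signals of 12450 and 16590 and a ratio of 0.23, but its other probes gave −0.09 and −0.07. *Psmd13* was the lowest, with signals of 24920 and 25280 and a ratio of −0.16. *Psmd14*, the lid's deubiquitinase, had signals of 15230 and 18930 and a ratio of 0.13, and 0.20 at its other compared probe.

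The 7 assembly chaperones, which dock subunits while the particle is built, had a median of −0.01. They ran from *Psmg2*, with signals of 2598 and 2553 and a ratio of −0.21, to *Psmd10*, with 5075 and 6139 and a ratio of 0.09. *Psmg2* was the third lowest member, and its 3 probes ran from −0.21 to 0.02.

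The activators, which bind the ends of the core in place of the 19S particle, and the inhibitor were all above 0. *Psmf1* encodes PI31, known as an inhibitor of the core in vitro, and was the highest member at the brightest probe. Its signal went from 726.0 (control) to 1100 (*Drp1*LiKO), a ratio of 0.42 or 1.33-fold. This was 3.70 times a spot noise that rests on only 5 printed probes. Its other compared probe went from 619.3 to 804.5, a ratio of 0.19. Its ratio was 0.18 with the deposited intensities, below *Psmd11* at 0.35, and 0.31 with the median of its probes, below *Psme4* at 0.43. *Psme4*, which encodes the activator PA200, had signals of 9337 and 12560 and a ratio of 0.25. Its other compared probe went from 1095 to 1890, a ratio of 0.60, the highest of any member probe. *Psme3*, the nuclear activator PA28γ, had signals of 2508 and 3040, a ratio of 0.09 within the spot noise of 0.105, and 0.24 at its other probe.

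Of the 2 genes taken by the name pattern alone, only *Psmc3ip* lay outside the range of the other members, −0.26 to 0.42. *Psmc3ip*, named for binding *Psmc3* and known as a cofactor of meiotic recombination, was the lowest member. Its signal went from 361.0 (control) to 235.4 (*Drp1*LiKO), a ratio of −0.80 or 1.74-fold lower, and its dim other probe gave −0.96. Both probes were lower, and neither passed the Z score. *Psme2b* had signals of 29660 and 38800, a ratio of 0.20, and its other probe gave 0.12. Both *Psme2b* probes also list the accessions NM_011190 and NM_001029855, which the RefSeq table gives to *Psme2*, the interferon-inducible PA28β, and no probe of the array is named *Psme2*. The probes thus cannot separate these genes, and 1 of them is shown as what was read:
Psme2b (NM_001281472), chr11:48759495-48759554, minus strand: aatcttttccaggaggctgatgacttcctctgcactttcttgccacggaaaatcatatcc

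Of the 28 members with more than 1 compared probe, 13 had all probes on the same side of 0. In 2 of them, *Psma8* and *Psmc2*, probes differed by 0.5 or more. A ratio over 2 SDs of the spot noise was seen for 18 members, 9 higher and 9 lower, which is 18 of 44 beside 45.2% of all genes compared and 62.0% of the bright genes. These counts describe how far the readings of 1 hybridization agree and not how cultures vary.

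The immune catalytic subunits were set against the constitutive subunits that they replace. *Psmb8* had signals of 1612 (control) and 2483 (*Drp1*LiKO), a ratio of 0.44, and the difference between its ratio and that of *Psmb5* was 0.58. *Psmb9* had signals of 568.4 and 922.6, a ratio of 0.52, and its difference from *Psmb6* was 0.71. These differences, 1.49-fold and 1.63-fold, were 4.87 and 5.65 times the noise between spots. For *Psmb8* and for *Psmb9* that noise rests on only 5 printed probes each, so the multiples are rough. *Psmb10* had signals of 11140 and 11440, a ratio of −0.14, and its difference from *Psmb7* was −0.02, within the noise of 0.077. The ratio of the immune subunit exceeded that of its partner by more than the spot noise in 2 of 3 pairs, as values with no test. *Psme1*, which encodes PA28α, stood at −0.03. The macrophage and endothelial markers given above moved in the same direction as *Psmb8* and *Psmb9*, and their part in these values was not tested.

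**Figure D3:**
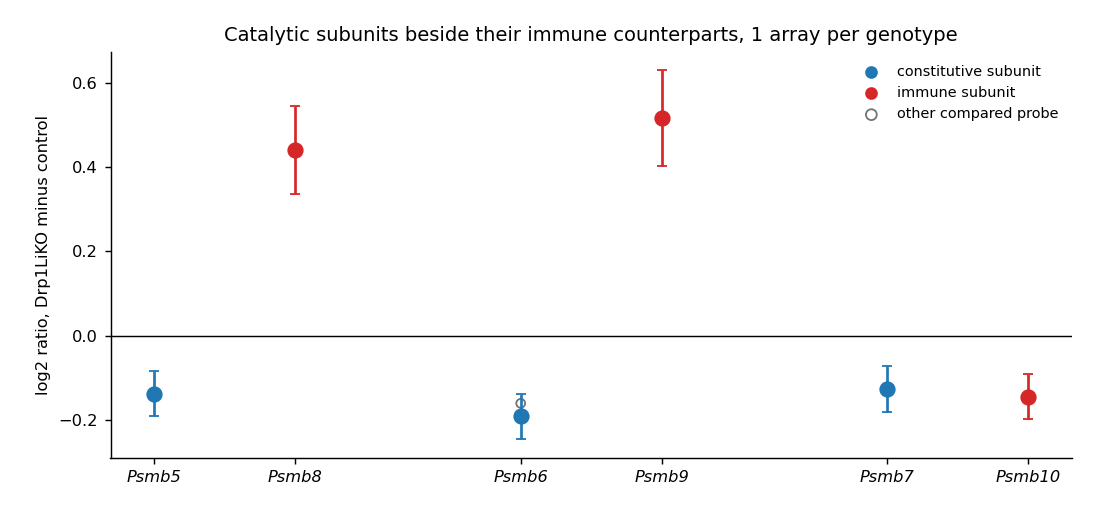
Log2 ratio of *Drp1*LiKO over control for each constitutive catalytic subunit (blue) beside the immune subunit that replaces it (red), 1 array per genotype. Bars are ± 1 SD of the noise between spots and open circles are other compared probes. *Psmb8* and *Psmb9* lie above 0 and their partners below, while *Psmb10* and *Psmb7* lie together.

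Other genes of the pathway were taken from a list of 28 that deliver ubiquitin or substrates or that bind or regulate the proteasome. All were compared, 13 above 0 and 15 below, with a median of −0.01, and none passed the Z score. None reached −0.32, beside 20.6% of all genes compared, and 4 of 28 reached 0.32, beside 18.7%. These 4 are named here after their values were seen. *Zfand2a*, which encodes the arsenite-inducible proteasome-binding protein AIRAP, went from 5778 to 13460, a ratio of 1.04. *Fbxo7*, an F-box protein known to bind PI31, went from 8150 to 15200, a ratio of 0.72, and its other compared probes gave 0.64 and 0.74. *Rad23b*, a shuttle for ubiquitinated proteins, gave 0.41 and *Zfand5*, a proteasome-binding protein induced in muscle wasting, 0.35. *Nfe2l1*, the regulator of the subunit genes, had signals of 6847 and 7825 and a ratio of 0.01. The assembly factor *Pomp* was at −0.16 and the ubiquitin receptor *Adrm1* at 0.05.

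As comparison complexes served the COP9 signalosome, which is related in structure to the 19S lid, and the chaperonin CCT, which folds actin and tubulin. Of 9 COP9 genes 7 were below 0, with a median of −0.20, and *Cops3* at −0.45 and *Cops6* at −0.33 passed −0.32, a count of 2 of 9 beside the 20.6% of all genes. The share of all genes below 0 was 55.4%. The 8 CCT genes had a median of −0.06 and ran from −0.17 to 0.18, with an SD of 0.12 beside 0.13 in the core and 19S particle. The subunits of CCT thus lay in as narrow a band as those of the proteasome, with no test of the difference.

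**Figure D4:**
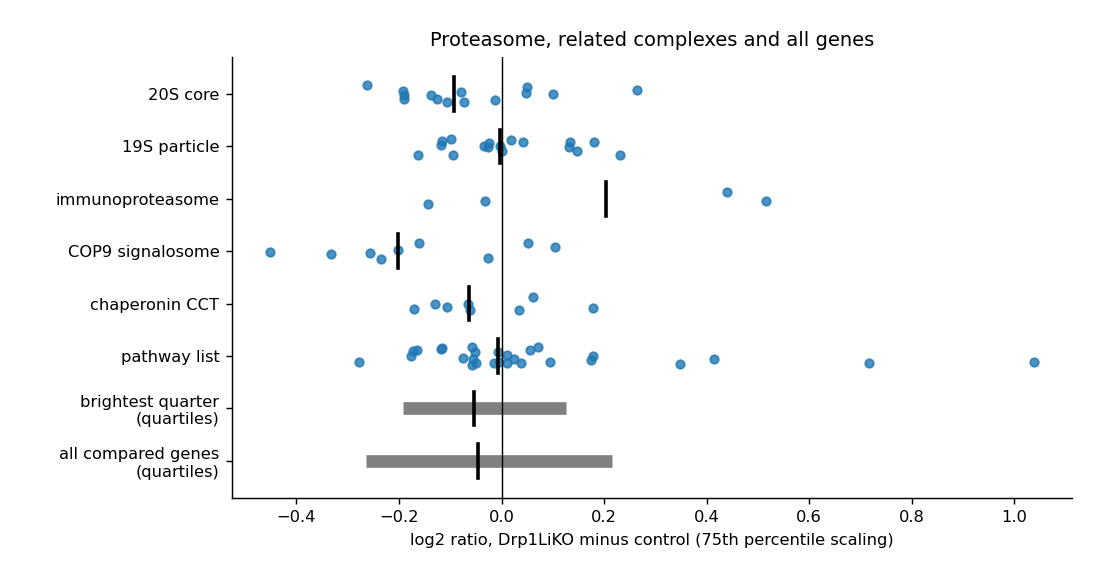
Log2 ratio of *Drp1*LiKO over control for the genes of each complex or list, 1 array per genotype, each point a gene at its brightest probe. Black lines are medians and gray bars run between the quartiles of larger gene sets. The core and 19S points cluster around 0, and *Zfand2a* and *Fbxo7* of the pathway list lie farthest to the right.

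The promoters were searched for TGACNNNGC, the core of the antioxidant response element that NRF1 binds with small MAF proteins, and for CCAAT, both on either strand. The windows were 250 bases before to 50 after the start site in the RefSeq annotation of GRCm38.p6, which held 37 of the 45 members with 39 promoters. TGACNNNGC was in 6 of the 39 (15.4%), against 12.4% of all 32851 promoters. CCAAT was in 14 of the 39 (35.9%), against 37.4% of all, and in member promoters no match of one motif overlapped the other. Both catalytic genes with a match of TGACNNNGC, *Psmb5* and *Psmb6*, are shown over the 60 bases before their start site, on the strand of the gene, with the match in capitals. Their ratios were −0.14 and −0.19. A match is a description of letters and not a site.
Psmb5, GRCm38.p6 chr14:54617996-54618055, minus strand: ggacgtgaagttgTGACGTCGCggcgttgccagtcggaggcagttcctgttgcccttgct
Psmb6, GRCm38.p6 chr11:70525297-70525356, plus strand: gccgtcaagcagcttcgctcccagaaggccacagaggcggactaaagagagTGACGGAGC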

How the data were processed

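RNA of control and *Drp1*LiKO primary hepatocytes was labeled with Cy3 and hybridized to 1 Agilent 60-mer array per genotype, both on 1 slide and read in 1 scan. The authors deposited the Feature Extraction output of each array (version 10.7.1.1 per the file headers, 9.5.1.1 per the submitters' processing notes), with a processed intensity per spot that is corrected for background and not normalized between arrays. They also deposited normalized intensities, by a method not given in the sources used here. Against the arrays, ranks of probes correlated at 1.00 for control but at 0.959 for *Drp1*LiKO, so it is uncertain whether that column holds the values of this array, and the table served only as an alternative.

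Control spots and outlier spots were left out, the spots of a probe were averaged as log2 intensities, and each array was scaled to its 75th percentile. The 30275 probes well above background on either array were kept. Dimmer signals were set to a floor of 18.2 (control) or 15.0 (*Drp1*LiKO), the lowest signal well above background. Well above background were 48.2% of probes in control and 52.1% in *Drp1*LiKO. A gene was its brightest probe over both arrays. Coordinates of probes are those of the files, in mm9, and promoters are from RefSeq (GRCm38.p6). All 45 names stand in the RefSeq table of gene symbols, while only 37 had a promoter in the annotation searched.

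The members and gene lists were chosen with earlier results of these data known. Genes named were the 3 highest and 3 lowest members, the exchange pairs and members with probes 0.5 or more apart. Also named were *Psma8*, *Psmb11*, *Psmf1*, *Psme3*, *Psme4*, *Nfe2l1*, *Dnm1l* and the 2 genes taken by the name pattern alone. Others were added as the ends of a role group or list, as the beta ring, or after their values were seen. The alternatives were quantile normalization, spike-in or median scaling, normexp background correction (offset 50), the deposited intensities, no floor, 2 filters on dim probes, inclusion of outlier spots, the median of a gene's probes and 2 other Z scores, and 2 more were added after seeing the data. The steps were tested on simulated data with changes larger than the ratio of any member, so ratios as small as those of the members were not tested. Software was limma 3.58.1 in R 4.3.3, and pandas 2.3.3, numpy 2.4.6, scipy 1.17.1 and matplotlib 3.10.9 in Python 3.11.15.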

Additional observations from a re-analysis of the deposited data

How the results depend on the processing

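Of 120 values recomputed under an alternative, 113 moved by less than the noise between spots or, for counts, by no more than 1.5 times, and 7 moved further. The member median, −0.01, lay so near 0 that it changed sign under 4 settings, to between 0.00 and 0.03, and 16 to 25 members were below 0. With the deposited intensities, whose *Drp1*LiKO column may not come from this array, 4 members in place of 1 were at or below −0.32, the difference of *Psmb9* from *Psmb6* was 0.54 and that of *Psmb10* from *Psmb7* was −0.11. Spike-in scaling gave 2 members in place of 1 at or above 0.32, no filter on dim probes 2 at or below −0.32, and a robust Z score 1 past the threshold downward. Without the 2 genes taken by the name pattern alone, a comparison added after seeing the data, 0 members were at or below −0.32. The causes were not tested, apart from the last, which leaves out *Psmc3ip*. All 31 core and 19S genes were inside these limits under every setting except the deposited intensities, where 27 were. Over the ratios in the report and 11 other ways of computing them, 25 of 44 members kept their sign, 12 higher and 13 lower, though some of these ways cannot move bright genes. No paired analysis was possible because each genotype has 1 array. Spot noise limits genes with signals below 64, and the number of arrays limits all values.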
